A study of Homo sapiens with 10 samples.

Results

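The large subunit of the human cytosolic ribosome is built from ribosomal RNA and a fixed set of proteins, most of them encoded by genes named RPL or RPLP. The gene rows whose symbol was RPL followed by a number, with an optional A or L, or RPLP0, RPLP1 or RPLP2, gave 49 members of 19215 gene symbols, and pseudogenes and the mitochondrial MRPL genes were left out. Of these, 47 passed the filter on low counts, among 13349 genes tested, and the 2 that did not were RPL3L and RPL10L.

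The series compared 4 groups of human liver cancer cells by RNA sequencing of total RNA from cells grown with 10% serum. These were HepG2 cells with a miR-17 TuD (3 libraries), HepG2 cells with an NC TuD (3 libraries), SK-Hep1 cells with a miR-17 TuD (2 libraries) and SK-Hep1 cells with an NC TuD (2 libraries). HepG2 is a hepatocyte-like line and SK-Hep1 a mesenchymal one, and the labels call both hepatocellular carcinoma. A TuD, or tough decoy, is an RNA that holds a microRNA so that it cannot bind its targets, and the NC TuD is the control decoy. All 4 groups had been infected with lentivirus at a multiplicity of 5 with 10 µg/mL polybrene for 48 hours and selected with 1 µg/mL puromycin, and after 2 weeks the resistant colonies were pooled. Each group is therefore 1 stable pooled line, so a difference between decoys and a difference between 2 pools cannot be told apart. The labels do not say that replicates are separate cultures, and the p-values measure only the spread between these libraries, which may be technical.

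Ribosomal protein genes are expressed together, since the subunit is assembled from equal amounts of its proteins and free excess protein is degraded. Their mRNAs start with a cytosine followed by a run of pyrimidines, the terminal oligopyrimidine or TOP motif, through which the kinase mTOR and the binding protein LARP1 adjust their translation and stability to growth conditions. Growing tumour cells, liver cancer cells among them, devote much of their synthesis to ribosomes. MicroRNAs of the miR-17 family instead act on mRNAs through the seed, the bases 2 to 8, which pair with sites mostly in the 3′ untranslated region.

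The mature sequences of 3 family members are shown because sites for their common seed, in capitals, were searched for in the members. The sequences are from RefSeq on GRCh38.p14. hsa-miR-17-5p lies at chr13:91350618-91350640 and hsa-miR-20a-5p at chr13:91351072-91351094 on the plus strand, and hsa-miR-106b-5p lies at chr7:100094043-100094063 on the minus strand.
hsa-miR-17-5p: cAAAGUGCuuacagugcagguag
hsa-miR-20a-5p: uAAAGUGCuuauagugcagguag
hsa-miR-106b-5p: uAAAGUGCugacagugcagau
The site opposite this seed is GCACTTT on the sense strand, and 4 of the 49 members (8.16%) held it in the 3′ untranslated region of the GENCODE 29 transcript chosen for them, against 16.2% of 18164 genes. They were RPL27A, RPL37, RPL37A and the muscle gene RPL3L, and beside RPL3L the regions of the other three were long in the chosen transcripts, at 4066 bases for RPL27A, 7242 bases for RPL37 and 2682 bases for RPL37A. The median 3′ untranslated region was 59 bases over the members and 659 bases over all genes, and shorter regions hold fewer sites.

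RefSeq promoter sequence was matched to 39 of the 49 members. A cytosine at the annotated start followed by 4 more pyrimidines (C or T, the start strand alone) was present in 25 of the 39 (64.1%), against 4.04% of 27305 promoters. A pyrimidine run of at least 7 bases touching the 10 bases on either side of the start was present in 30 of the 39 (76.9%), against 20.9%, and the median longest run was 12 bases in members and 4 bases in all promoters. The windows below run from 15 bases before the start to 15 bases into the transcript on the gene's strand, with the longest pyrimidine run in capitals. RPL21, RPL22, RPL31 and RPLP0 are shown as members that fell in HepG2 cells with the miR-17 TuD, RPLP2 and RPL28 as members that were not called, and RPL10L as a testis copy with almost no counts here. They lie at chr13:27251543-27251572 (RPL21, plus), chr1:6199581-6199610 (RPL22, minus), chr2:101002274-101002303 (RPL31, plus), chr12:120201097-120201126 (RPLP0, minus), chr11:809952-809981 (RPLP2, plus), chr19:55385917-55385946 (RPL28, plus) and chr14:46651767-46651796 (RPL10L, minus) on GRCh38.p14.
RPL21: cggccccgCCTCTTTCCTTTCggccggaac
RPL22: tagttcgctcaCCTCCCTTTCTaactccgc
RPL31: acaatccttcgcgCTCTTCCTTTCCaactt
RPLP0: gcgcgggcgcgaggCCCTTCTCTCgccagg
RPLP2: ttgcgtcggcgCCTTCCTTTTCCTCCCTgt
RPL28: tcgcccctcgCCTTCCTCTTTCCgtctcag
RPL10L: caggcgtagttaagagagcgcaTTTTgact
The run covers the start in the 6 expressed genes, both those that fell and those that did not, and in RPL10L the longest run near the start was 4 bases.

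Library totals were 12884225 to 15076431 gene counts, so 1 count was worth 0.0657 to 0.0795 counts per 1000000 (CPM). Mature miR-17 was not measured in these mRNA libraries, so the hold of the decoy on it could not be checked directly. Whether mRNAs with miR-17 sites changed with the decoy was not tested here. The 10 hepatocyte markers were all above 1 CPM in both HepG2 groups and summed to 45921 to 48513 CPM with the miR-17 TuD, against 52915 to 55105 CPM with the NC TuD. In SK-Hep1 the same markers summed to 75.9 to 80.7 CPM with the miR-17 TuD and 85.4 to 104 CPM with the NC TuD, with TTR at 0 in both groups. The 6 mesenchymal markers summed to 11713 to 11806 CPM and 10893 to 11151 CPM in SK-Hep1, against 208 to 216 CPM and 198 to 208 CPM in HepG2. Most of the SK-Hep1 sum was VIM, at means of 9581 and 8822 CPM. CDH2 went the other way, at 79.9 and 84.4 CPM in SK-Hep1, against 120 and 98.3 CPM in HepG2. The 5 endothelial markers summed to at most 2.94 CPM and the 4 blood markers to at most 2.94 CPM in any library, and KDR, CD3E and HBB were at 0 in all. Reads assigned to no feature were 13.9% to 14.1% of reads in HepG2 with the miR-17 TuD, against 13.7% to 13.9% with the NC TuD.

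In HepG2 cells the large-subunit genes were lower with the miR-17 TuD than with the NC TuD almost throughout. Of the 47 tested members, 43 fell and none rose (edgeR's quasi-likelihood test, Benjamini-Hochberg adjusted p below 0.05), which is 91.5% of them, against a background of 8.58% of all tested genes called lower. Over all genes 19.3% were called in either direction. The falls were small and even: the median log2 fold change of the members was −0.17 (median fold 0.888), with a SD of 0.05 between members and a range of −0.27 for RPL11 to 0.00 for RPL28, against a median of 0 over all tested genes. All 3 libraries with the miR-17 TuD lay below all 3 with the NC TuD in 40 of the 47, against 14.9% of all tested genes, and none had the opposite order, against 16.1%.

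The members summed to 2.69%, 2.68% and 2.59% of gene counts in the 3 HepG2 libraries with the miR-17 TuD, against 2.93%, 2.88% and 2.88% in the 3 with the NC TuD. The groups did not overlap, with means of 2.65% ± 0.0567 and 2.90% ± 0.0298 (SD, n = 3 each). With the 50 most abundant genes left out of the totals, the share was 3.04% to 3.16% with the miR-17 TuD, against 3.42% to 3.47% with the NC TuD. In SK-Hep1 the share was 3.003% and 3.06% with the miR-17 TuD, against 3.05% and 2.999% with the NC TuD, and these groups overlapped. In bulk RNA, fewer cells that express a gene and less RNA per cell cannot be told apart. The sum of hepatocyte markers and the share of reads outside features, given above, also moved with the decoy in HepG2, and their part in the result was not tested.

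**Figure D1:**
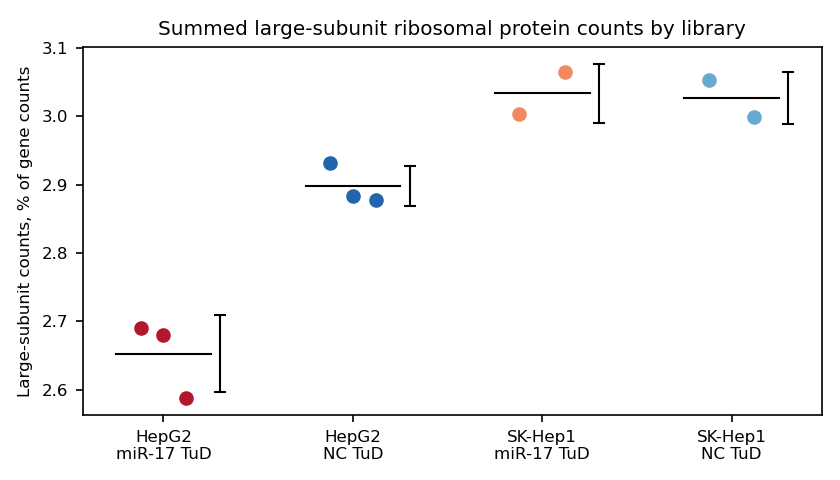
Summed counts of the large-subunit genes as a percent of all gene counts in each library (y axis, not starting at 0), by group (x axis); points are libraries, the line is the mean and the bar beside it 1 SD. The 3 HepG2 libraries with the miR-17 TuD lie at 2.59% to 2.69%, below the other 7 libraries.

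The 5S ribonucleoprotein comprises 5S rRNA with RPL5 and RPL11, and when it is not built into ribosomes it binds and inhibits MDM2. RPL11 (chr1:23691806-23696835, plus strand, GRCh38) had 524, 514 and 506 CPM in HepG2 libraries with the miR-17 TuD, against 609.6, 643 and 607 CPM with the NC TuD. The groups stood well apart, and the log2 fold change of −0.27 ± 0.03 (SE, adjusted p = 1.26e-08) was the lowest among the members. RPL5 (chr1:92832040-92841924, plus strand) had 815, 796 and 833 CPM with the miR-17 TuD, against 966, 951 and 909.8 CPM with the NC TuD. Its groups did not overlap either, and the log2 fold change was −0.21 ± 0.03 (SE, adjusted p = 1.2e-06).

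The P stalk, made of RPLP0 with pairs of RPLP1 and RPLP2 beside RPL12 at its base, recruits the elongation factors. RPLP0 (chr12:120196686-120201211, minus strand) had 1703, 1672 and 1619.9 CPM in HepG2 with the miR-17 TuD, against 1859, 1852 and 1877 CPM with the NC TuD, a log2 fold change of −0.16 ± 0.03 (SE, adjusted p = 5.28e-05). RPL12 (chr9:127447674-127451405, minus strand) had 479, 465 and 458 CPM with the miR-17 TuD, against 555, 527 and 518 CPM with the NC TuD, a log2 fold change of −0.19 ± 0.03 (SE, adjusted p = 2.96e-05). Both had every library with the miR-17 TuD below every library with the NC TuD, whereas the acidic proteins of the stalk tip lay closer together.

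RPLP1 had 639, 619 and 563 CPM with the miR-17 TuD, against 662, 636 and 667 CPM with the NC TuD. The groups overlapped at 1 library, replicate 3 with the miR-17 TuD was the lowest, and the log2 fold change was −0.11 ± 0.04 (SE, adjusted p = 0.0249). The call was lost in 8 of the 16 alternatives, and without that replicate the log2 fold change was −0.06. RPLP2 had 417, 412 and 376 CPM with the miR-17 TuD, against 438, 408 and 421 CPM with the NC TuD, and was not called (log2 fold change −0.07 ± 0.04 (SE), adjusted p = 0.183).

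All 5 members near the peptidyl transferase centre and along the tRNA path fell. RPL10, one of the last proteins to join the subunit, had 853, 825 and 782 CPM with the miR-17 TuD, against 952, 943 and 941 CPM with the NC TuD, a log2 fold change of −0.20 ± 0.03 (SE, adjusted p = 2.52e-06). RPL8, which lies close to the catalytic centre, had 927, 968 and 903 CPM with the miR-17 TuD, against 1018, 965 and 1014 CPM with the NC TuD. Its groups overlapped, and its log2 fold change of −0.10 (adjusted p = 0.0248) was the smallest of this set. The others were RPL3, RPL10A of the L1 stalk, and RPL36A near the exit site of tRNA, at log2 fold changes of −0.16, −0.11 and −0.21.

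The exit tunnel guides the new protein out, and its rim docks chaperones and the signal recognition particle. All 8 members listed there fell, at a median log2 fold change of −0.18, led by RPL39, which lines the tunnel, at −0.23, RPL17 at −0.22 and RPL31 at −0.21, with RPL19 at −0.13 the least changed. The 3 members that form bridges to the small subunit also fell, RPL30 by 0.19, RPL24 by 0.16 and RPL41 by 0.15 on the log2 scale. RPL27, RPL15, RPL35A and RPL18, genes mutated in Diamond-Blackfan anaemia beside RPL5 and RPL11, all 4 fell, with log2 fold changes of −0.19 to −0.12. By role, the medians ran from −0.24 for the 5S ribonucleoprotein to −0.14 for the P stalk, and differences between roles were not tested.

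Among the 20 remaining members 18 fell. RPL6 (chr12:112405199-112409641, minus strand) had 750.2, 733 and 743 CPM in HepG2 with the miR-17 TuD, against 884, 890.0 and 829 CPM with the NC TuD, a log2 fold change of −0.23 ± 0.03 (SE, adjusted p = 3.33e-07). RPL9 (chr4:39454124-39458948, minus strand) had 440.4, 437 and 450.4 CPM with the miR-17 TuD, against 521, 524 and 500.5 CPM with the NC TuD, a log2 fold change of −0.22 ± 0.03 (SE, adjusted p = 1.49e-06). RPL21 (chr13:27251579-27256568, plus strand) had 274, 262 and 278 CPM with the miR-17 TuD, against 327, 322 and 309.6 CPM with the NC TuD, a log2 fold change of −0.24 ± 0.04 (SE, adjusted p = 1.72e-06). In these 3 core proteins of the subunit no library with the miR-17 TuD reached the lowest one with the NC TuD.

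The 4 tested members outside the count were RPL13, RPL28, RPLP2 and the testis-enriched copy RPL39L, which had no count in any HepG2 library. RPL13 had 1324, 1317 and 1171 CPM in HepG2 with the miR-17 TuD, against 1394, 1239 and 1372 CPM with the NC TuD (log2 fold change −0.07 ± 0.04 (SE), adjusted p = 0.217). RPL28 had 258, 269 and 244 CPM with the miR-17 TuD, against 256, 251 and 264 CPM with the NC TuD. The groups of both genes overlapped, and the 95% interval for RPL28 ran from −0.08 to 0.08 on the log2 scale. RPL13 was called without NC TuD replicate 2, at −0.12.

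**Figure D2:**
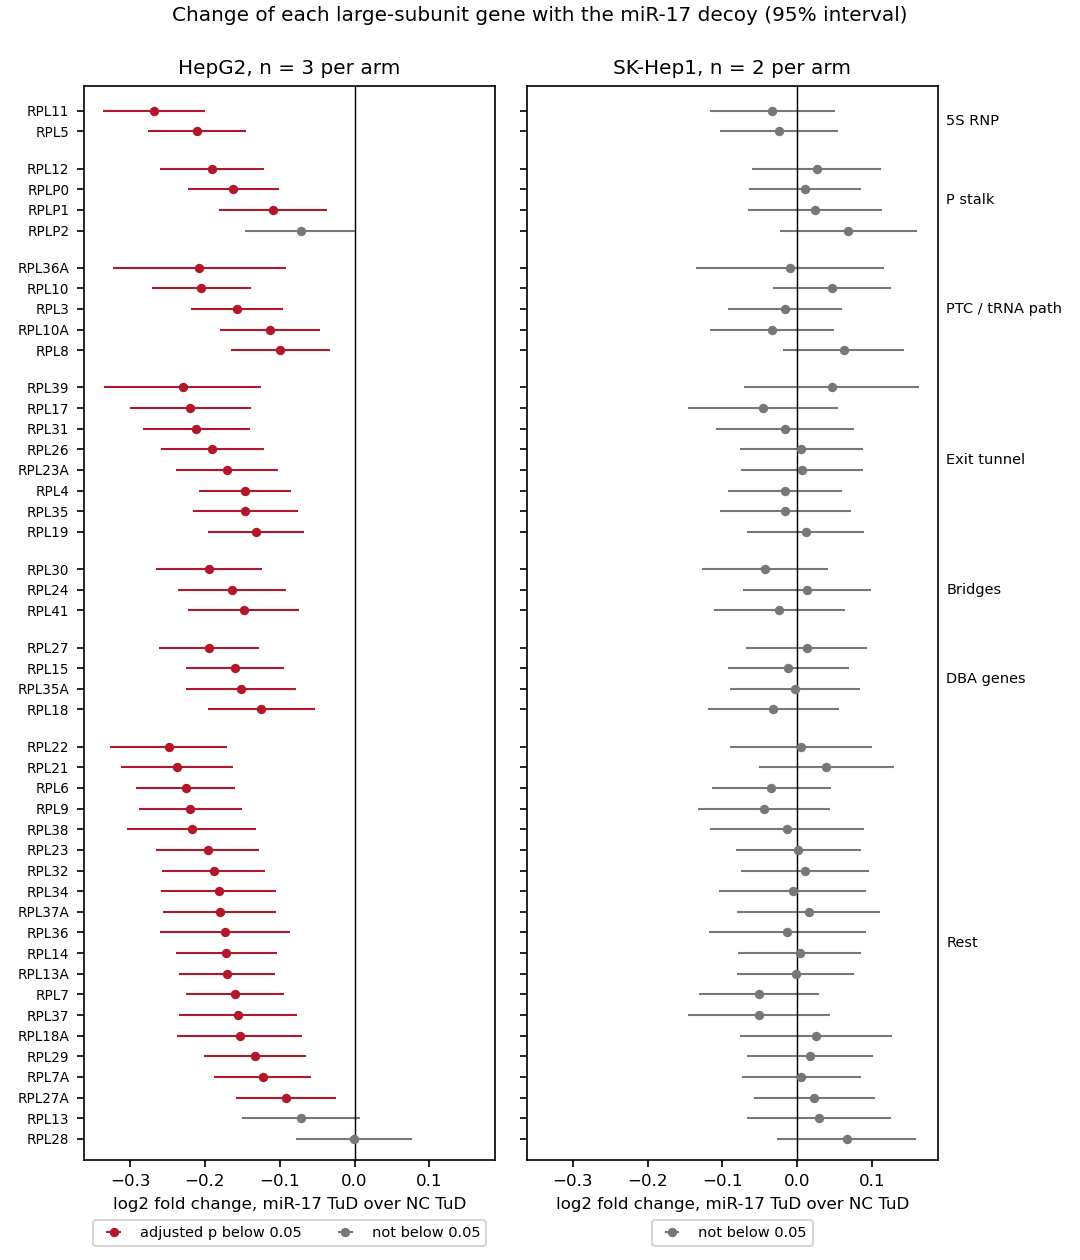
log2 fold change of each large-subunit gene, miR-17 TuD over NC TuD (x axis), in HepG2 (left) and SK-Hep1 (right), with genes grouped by role (5S RNP, P stalk, peptidyl transferase centre or PTC, exit tunnel, bridges, Diamond-Blackfan anaemia or DBA genes, rest); points are estimates, bars 95% intervals, red marks an adjusted p below 0.05. In HepG2 43 genes lie left of 0 beyond their intervals, and in SK-Hep1 every interval of the 46 genes drawn includes 0.

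The fall in HepG2 was seen in members with and without the strict start motif. Of the 25 with a cytosine and 4 pyrimidines at the RefSeq start, 23 fell in HepG2, at a median log2 fold change of −0.17. Of the 13 tested members with a RefSeq start that lacks it, 12 fell, at a median of −0.19, and of the 8 tested members with no RefSeq sequence and a fitted change, all 8 fell, at a median of −0.17. RPL11 and RPL6, among the lowest, are in the second set, where the RefSeq start listed first may not be the one in use in these cells.

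In SK-Hep1 cells the large-subunit genes showed no difference between decoys that passed the test. None of the 47 tested members was called by edgeR, none had an unadjusted p below 0.05, and none was called by DESeq2, against a background of 0.869% of all tested genes called (0.202% lower and 0.667% higher). The median log2 fold change of the members was 0.00, with a range of −0.05 to 0.07, against a median of −0.01 over all tested genes. Of the 46 members drawn for both lines, the lower ends of the 95% intervals in SK-Hep1 were all at −0.15 or above.

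RPL8, RPLP2, RPL28, RPL7 and RPL10 had the smallest p-values in SK-Hep1, with the log2 fold changes 0.06, 0.07, 0.07, −0.05 and 0.05 (adjusted p of 0.729 to 0.818). RPLP2 had 377 and 376 CPM with the miR-17 TuD, against 356 and 363 CPM with the NC TuD, and RPL8 had 1047 and 1040.1 CPM with the miR-17 TuD, against 989 and 1011 CPM with the NC TuD. Their groups did not overlap, as happens for 18.4% of all tested genes in this upward direction with 2 libraries a group. RPL28 had 349.9 and 335 CPM with the miR-17 TuD, against 322 and 333 CPM with the NC TuD. RPL7 had 768 and 766 CPM with the miR-17 TuD, against 799 and 790.2 CPM with the NC TuD, without overlap, an order found in 21.9% of all tested genes.

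Genes with a clear fall in HepG2 lay close together in SK-Hep1. RPL11 had 617 and 650.4 CPM with the miR-17 TuD, against 654 and 644 CPM with the NC TuD, and RPL5 had 1057 and 1071 CPM, against 1083 and 1080.2 CPM. RPL21 had 338 and 319 CPM with the miR-17 TuD, against 319 and 321 CPM with the NC TuD, and RPLP0 had 2735 and 2780.5 CPM, against 2756 and 2721 CPM. The log2 fold changes of these 4 genes lay between −0.03 and 0.04, and none was called (adjusted p of 0.878 to 0.988).

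**Figure D3:**
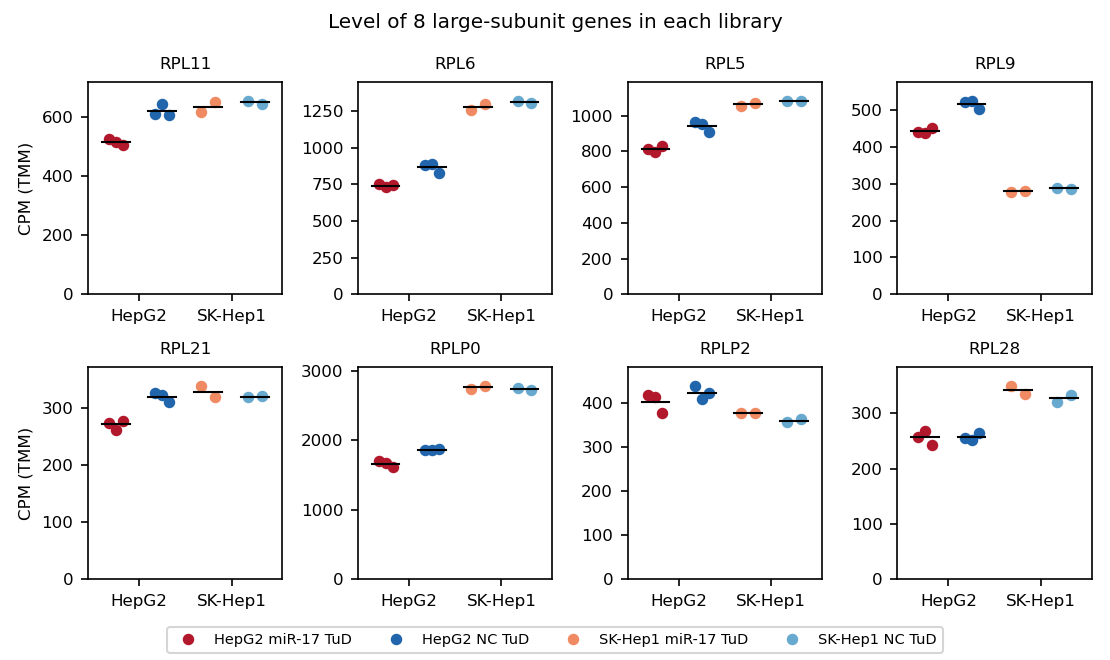
CPM scaled by TMM (y axis, from 0) of 8 large-subunit genes in each of the 10 libraries, by cell line (x axis) and decoy (colour); points are libraries and lines group means. RPL11, RPL6, RPL5, RPL9, RPL21 and RPLP0 lie lower with the miR-17 TuD than with the NC TuD in HepG2 without overlap, while RPLP2 and RPL28 overlap there.

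The difference between the lines in the change between decoys was itself tested, as the HepG2 log2 fold change minus the SK-Hep1 log2 fold change. It was called lower (adjusted p below 0.05) for 17 of the 47 members and higher for none, at 36.2% against a background of 1.24% of tested genes called lower, 2.51% called higher and 3.75% in all. The lowest was RPL21 at −0.28 ± 0.06 (SE, adjusted p = 0.00161), and the smallest p-value was that of RPL10, at −0.25 ± 0.05 (SE, adjusted p = 0.000987). RPL11 differed by −0.23 ± 0.05 (SE, adjusted p = 0.00401), RPL22 by −0.25 ± 0.06 (SE, adjusted p = 0.00816) and RPL5 by −0.19 ± 0.05 (SE, adjusted p = 0.024). RPL22 also binds viral RNA and has a paralogue, RPL22L1, that can take its place. The other members, among them RPL9, RPL8, RPLP1, RPLP2 and the 3 bridge proteins, did not pass this test, which does not show that they responded alike.

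The count of 17 depended on single libraries. It was 3 without SK-Hep1 miR-17 TuD replicate 2, 4 without SK-Hep1 NC TuD replicate 2, 6 without HepG2 NC TuD replicate 1, 8 without SK-Hep1 NC TuD replicate 1, and 10 without replicate 1 of the miR-17 TuD in either line. It was 6 with total gene counts as the only scaling. RPL10 and RPL21 were called under all 19 alternatives run for them, with differences of −0.28 to −0.22 and −0.32 to −0.23.

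Other genes of the translation machinery were read from lists, each beside the background of 8.58% lower and 10.7% higher in HepG2. Of 31 tested small-subunit genes 25 fell and none rose, at a median log2 fold change of −0.15, with RPS12 at −0.21, RPS6, the phosphorylated substrate of S6 kinase, at −0.19, and RPS7 at −0.18. They summed to 1.80% ± 0.0376 of gene counts with the miR-17 TuD and 1.95% ± 0.00951 with the NC TuD (SD, n = 3 each). Of 17 other TOP genes 11 fell and 1 rose, at a median of −0.12, with EEF1A1, the elongation factor that delivers tRNA, at −0.17, HNRNPA1 at −0.18, the initiation factor subunit EIF3E at −0.19 and TPT1 at −0.17.

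Factors that assemble the large subunit moved less evenly in HepG2. Of 32 tested, 9 fell and 1 rose, at a median log2 fold change of −0.11, with the nucleolar proteins GNL3 at −0.25 and NSA2 at −0.29 and the assembly factor RSL24D1 at −0.21. EFTUD1, the GTPase that releases EIF6 from the new subunit, rose by 0.40 ± 0.09 on the log2 scale (SE, adjusted p = 0.000324). The count of assembly genes was 6 without HepG2 NC TuD replicate 1, with total counts as the scaling and by DESeq2. Of 47 mitochondrial large-subunit genes 9 fell and 1 rose, at a median of −0.09, MRPL3 at −0.17 and MRPL50, MRPL13 and MRPL45 at −0.20, −0.22 and −0.16. That count was 6 without replicate 1 or 2 of the HepG2 miR-17 TuD or without NC TuD replicate 1, and 4 by DESeq2.

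Of 13 regulators 3 fell and 1 rose in HepG2. MYC, a transcription factor that drives ribosome production, was at −0.14 ± 0.04 (SE, adjusted p = 0.00743), EIF4EBP1, a translation repressor controlled by mTOR, at −0.21 (adjusted p = 0.00288), and CNBP, which binds TOP mRNAs, at −0.14 (adjusted p = 0.00354). MDM2 was not called in HepG2, at 0.09, but its difference between the lines was 0.23 (adjusted p = 0.0116). It had 325, 317.2 and 348 CPM in HepG2 with the miR-17 TuD, against 317.4, 314 and 297 CPM with the NC TuD. In SK-Hep1 MDM2 was lower with the miR-17 TuD, at 427 and 438 CPM, against 485 and 467 CPM with the NC TuD. These 2 SK-Hep1 groups did not overlap, an order found in 21.9% of all tested genes, and MDM2 was not called there. The difference between the lines is taken from the values of both, and the part of each line in it was not tested. Without HepG2 NC TuD replicate 1, 2 of the regulators were called in HepG2. No gene of these lists was called in SK-Hep1, and with the SK-Hep1 libraries fitted alone 1 assembly gene and 1 regulator were.

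**Figure D4:**
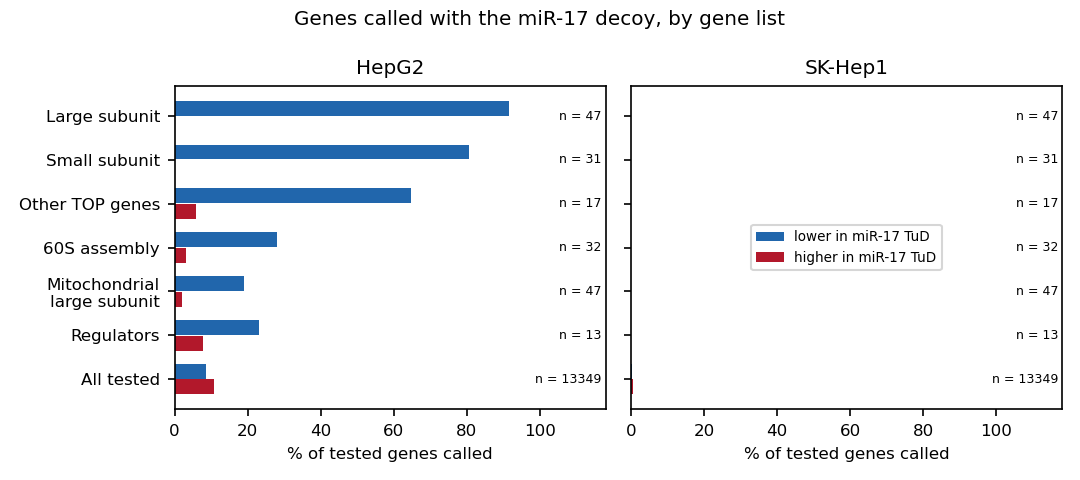
Percent of the tested genes of each list called lower (blue) or higher (red) with the miR-17 TuD than with the NC TuD (x axis) in HepG2 (left) and SK-Hep1 (right), with the number tested beside each bar pair. In HepG2 91.5% of large-subunit genes were called lower, against 8.58% of all tested genes, and in SK-Hep1 none of the listed genes was called.

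The paralogues RPL22L1, RPL7L1, RPL26L1 and RPL36AL, whose symbols fall outside the naming rule, were not called in HepG2, at log2 fold changes of −0.10, −0.01, −0.17 and −0.11.

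Between the lines, set with the NC TuD in both, the large-subunit genes differed gene by gene and not as a block. SK-Hep1 was higher than HepG2 in 17 of the 47 members and lower in 18, which at 36.2% and 38.3% lie under the background of 43.9% higher and 42.8% lower, and under the 86.7% of all tested genes called. The libraries of the lines did not overlap in 19 members higher in SK-Hep1 and 17 lower, against 46.1% and 44.3% of all tested genes. Both counts of higher members include RPL39L, which had 0 counts in HepG2. It passed the filter only through SK-Hep1, so its place in these counts was fixed in advance. Without RPL39L the median log2 fold change was 0.00, but single members ranged from −0.98 for RPL31 to 0.60 for RPL6, with a SD of 0.38 between members. The HepG2 libraries with the NC TuD stand in this comparison and in that of the decoys in HepG2.

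RPL31, at the tunnel rim, had 289 and 271 CPM in SK-Hep1 with the NC TuD, against 540.1, 568 and 550.2 CPM in HepG2 with the NC TuD, a log2 fold change of −0.98 ± 0.04 (SE, adjusted p = 6.77e-30). RPL9 had 289 and 286 CPM in SK-Hep1, against 521, 524 and 500.5 CPM in HepG2, a log2 fold change of −0.84 ± 0.04 (SE, adjusted p = 1.23e-27). RPL37A, RPL34 and RPL7A followed at −0.68, −0.62 and −0.54. No library of either line reached the range of the other for RPL31 or RPL9.

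RPL6 had 1319 and 1302 CPM in SK-Hep1 with the NC TuD, against 884, 890.0 and 829 CPM in HepG2 with the NC TuD, a log2 fold change of 0.60 ± 0.04 (SE, adjusted p = 1.38e-22). RPLP0 had 2756 and 2721 CPM in SK-Hep1, against 1859, 1852 and 1877 CPM in HepG2, a log2 fold change of 0.56 ± 0.03 (SE, adjusted p = 1.42e-22). RPL36A, RPL41 and RPL26 followed at 0.55, 0.54 and 0.51, and the bridge proteins RPL24 and RPL30 were also higher, at 0.44 and 0.38. The P stalk was split: RPLP0 was higher in SK-Hep1, whereas RPLP1, RPLP2 and RPL12 were lower, at −0.44, −0.23 and −0.26. RPL11, at 0.07 ± 0.04 (SE, adjusted p = 0.0989), was not called, but was called with the upper quartile, with total counts and without HepG2 NC TuD replicate 2, at 0.13, 0.12 and 0.09.

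**Figure D5:**
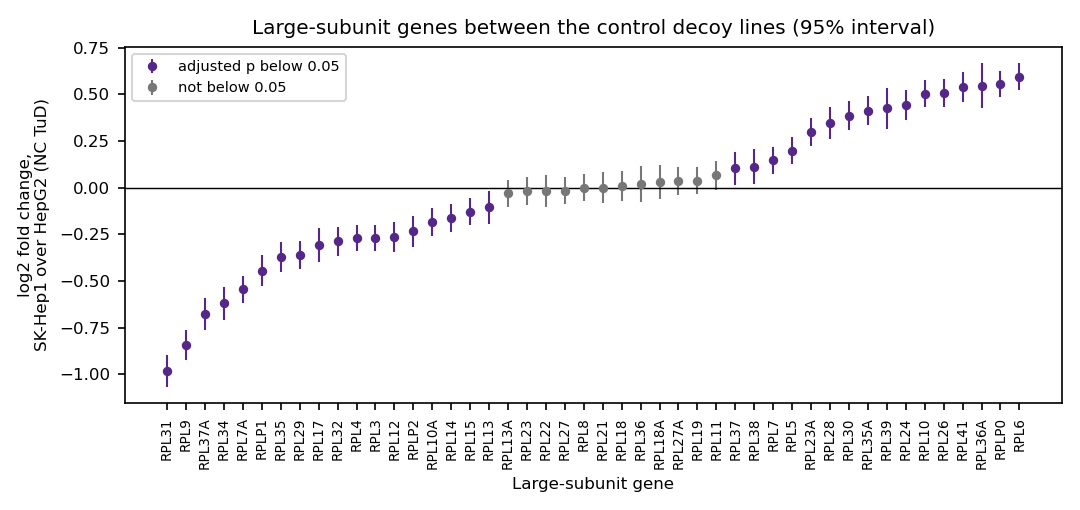
log2 fold change of each large-subunit gene, SK-Hep1 over HepG2, both with the NC TuD (y axis), sorted along the x axis; bars are 95% intervals and purple marks an adjusted p below 0.05. The genes run from RPL31 at −0.98 to RPL6 at 0.60, and RPL39L, at 0 in HepG2, is not drawn.

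RPL39L, a copy of the tunnel protein RPL39 that is enriched in testis, was the member with the sharpest contrast. It had 380 and 440 counts in SK-Hep1 with the miR-17 TuD, 360 and 471 counts in SK-Hep1 with the NC TuD, and 0 counts in all 6 HepG2 libraries. Against a floor of 3 counts over the HepG2 group, it was at least 419-fold higher in SK-Hep1 with the miR-17 TuD and at least 376-fold higher in SK-Hep1 with the NC TuD. RPL39 itself was also higher in SK-Hep1, with 107 and 106 CPM with the NC TuD, against 79.8, 79.99 and 77.1 CPM in HepG2 with the NC TuD. The other tissue-restricted copies were near the limit of detection: RPL3L, a muscle form of RPL3, had 0 to 3 counts and RPL10L 0 or 1 count in every library.

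Of the 4 paralogues outside the rule, 3 were higher in SK-Hep1 than in HepG2, RPL36AL by 0.83, RPL26L1 by 0.58 and RPL7L1 by 0.12 on the log2 scale. Of 31 small-subunit genes 6 (19.4%) were called higher and 16 (51.6%) lower, against 43.9% and 42.8% of all tested genes, with the widest values at 1.49 for RPS26 and −1.48 for RPS15A.

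Some counts may be affected by reads shared with other genes, most of which are left uncounted. The library kit did not keep the strand, and on GENCODE 29 RPL9 overlaps LIAS, RPL18 overlaps SPHK2, RPL23A overlaps TLCD1, RPL27A overlaps TRIM66 and RPL35 overlaps WDR38, so reads from an overlap cannot be assigned to one of the pair. RPL17 and RPL36A share exons with the read-through genes RPL17-C18orf32 (2 to 16 counts) and RPL36A-HNRNPH2 (0 to 2 counts). Pseudogenes of any type named after a member numbered up to 91, for RPL23A, then 66 for RPL21, 61 for RPL7 and 50 for RPL12. Reads that matched several places, 4.47% to 5.04% of reads, were not counted to any gene. The share of such reads was 4.98% to 5.04% in HepG2 with the miR-17 TuD, against 5.01% to 5.03% with the NC TuD. Reads left out as ambiguous between genes were 0.587% to 0.594% in HepG2 with the miR-17 TuD, against 0.614% to 0.619% with the NC TuD. These groups did not overlap, and the part of the members in this was not tested.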

How the data were processed

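Gene counts for 10 libraries were used as deposited. Per the labels' protocols, libraries were made from 150 ng total RNA with TruSeq RNA v2, and the series text gives 50 bp paired reads. Per the submitters' processing notes, the aligner was STAR on the human build hg19, and HTSeq 0.5.4p5 gave the counts. The series text names other tools and a mouse genome, whereas the files hold whole counts of human symbols. The 5 summary entries (no feature, ambiguous and the like) were kept out of totals: no feature held 11.6% to 14.1% of reads. A matrix of log2 values deposited by the authors (13658 genes, 48 members) served as an alternative only.

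Genes were kept with filterByExpr, scaled by TMM and fitted with 4 group means over all 10 libraries in edgeR 4.0.16 (quasi-likelihood, robust), with Benjamini-Hochberg adjustment over 13349 genes and a threshold of 0.05. CPM is the count per 1000000 of the TMM-scaled library size. SE is the log2 fold change divided by the root of F. RPL39L, at 0 in HepG2, has no fitted change there, but counts as tested. Scripts were tested on simulated data.

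Members given per library were, within a line, the 5 called members with the smallest p (or the 5 smallest p where fewer were called), RPL5, RPL11, the P proteins and the tissue-restricted copies, and between lines the 5 largest changes each way. RPL10, RPL12, RPL13, RPL28, RPL39 and role examples were added after their values were seen. From other lists, up to 4 called genes per contrast are named. Members and lists were chosen with earlier results of these data known. Roles and lists are from general knowledge. Transcripts are from GENCODE 29 (18247 of 19215 symbols matched), start sites and microRNAs from RefSeq. Replicates differed by more than counting noise (chi-square per degree of freedom 1.40 to 3.70). Other scalings, filters, tools (DESeq2 1.42.0, limma 3.58.1) and left-out libraries were tried. Some genes of the other lists are not reported here by name.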

Additional observations from a re-analysis of the deposited data

Results flagged for a closer look

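The log2 fold change between decoys differed between HepG2 and SK-Hep1 for 17 members, which is why they are listed. The test was that of the difference itself, edgeR's quasi-likelihood test on the interaction, adjusted over 13349 genes. Every group is its own pooled line, so the test cannot tell a different effect of the decoy from differences between pools. The difference in log2 fold change, HepG2 minus SK-Hep1, was −0.25 for RPL10, −0.28 for RPL21, −0.23 for RPL11, −0.25 for RPL22, −0.21 for RPL27, −0.22 for RPL12, −0.19 for RPL6, −0.20 for RPL23, −0.20 for RPL26, −0.19 for RPL5, −0.20 for RPL32, −0.17 for RPLP0, −0.28 for RPL39, −0.19 for RPL31, −0.17 for RPL13A, −0.18 for RPL23A and −0.17 for RPL14. Of the 19 alternatives run for each, RPL10 and RPL21 were called in 19, RPL11 in 17, and RPL14 in 7, the fewest. Groups of 2 or 3 libraries were too small for a check of single outlying libraries.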

How the results depend on the processing

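In HepG2 the count of members that fell was 38 to 43 over the 16 alternatives, and the median log2 fold change −0.18 to −0.14, with −0.139 under total counts as the scaling and −0.144 after the subtraction of a trend with transcript length. The SK-Hep1 count was 0 under all 14 alternatives, with medians of −0.019 (without miR-17 TuD replicate 2) to 0.012 when 1 library was left out, and 0.018 both with relative log expression (RLE) size factors and by DESeq2. The count for the difference between lines was 3 to 20 when 1 library was left out, 6 with total counts as the scaling and up to 24 otherwise. The summed level in HepG2 was −0.16 on the log2 scale with TMM-scaled totals, against −0.13 as a share of gene counts. Between lines 32 to 37 members were called. Same-numbered libraries of the 2 decoys showed no clear positive correlation of their deviations from the group means (0.05, −0.27 and −0.24 in HepG2 and −0.06 in SK-Hep1). Differently numbered libraries of the 2 decoys correlated at −0.09 to 0.31 in HepG2 and 0.06 in SK-Hep1. With 2 libraries per group the deviations mirror each other, so the 0.06 is the −0.06 with its sign turned. In HepG2 the deviations of a group sum to 0, so these correlations depend on each other and cannot decide whether the numbers pair the libraries. The highest was 0.31, for miR-17 TuD replicate 3 with NC TuD replicate 2 in HepG2, so libraries may share structure under another numbering. With the number as a replicate block the counts were 38 in HepG2, 0 in SK-Hep1 and 2 for the difference. Between lines the count was 33, in a separate block fit with NC TuD replicates 1 and 2 only. Of the members named, no called value reversed; 10 values that were never called changed sign (7 in HepG2, 3 in SK-Hep1). In HepG2 RPLP1 lost its call in 8 alternatives and RPL13 gained one in 1; for the difference 106 of 323 values lost the call, over 15 members. The cause was not tested. The fit to the deposited log2 matrix, chosen after seeing the data, called 41 members in HepG2. Where 1 SK-Hep1 library of a group was left out, the remaining one was assumed to vary like the other groups. The 2 libraries per SK-Hep1 group limit what could be detected there.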
